A study of Homo sapiens with 24 samples.

Results

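The 31 genes described here encode enzymes of glycolysis and of the first steps of pyruvate metabolism, and were chosen by name from the 26475 genes measured in each library. The rule itself uses no measured value, but the list was drawn up with earlier results of these data known. All 31 have an entry for the expected count in every one of the 24 libraries, which for FBP1 was 0 in some. RNA sequencing was performed on 2 human clear cell renal cell carcinoma (ccRCC) lines, 786-M1A and OS-LM1, derived for metastasis from 786-O and OS-RC2, which lack functional VHL and were grown in RPMI with 10% serum. Both also carry a luciferase transgene. Each line carried 1 of 3 constructs. shPAX8-1 and shPAX8-2 are short hairpin RNAs against PAX8, a transcription factor of the renal epithelial lineage, and sgNTC18 is a non-targeting guide RNA. There were 4 libraries for each of the 6 combinations of line and construct. Per the study's methods the hairpins were carried by doxycycline-inducible plasmids, and the time on doxycycline before RNA was taken is not given in the sources used here. Because the control is a guide RNA and the depleted cells carry hairpins, the type of construct, and any separate handling that came with it, cannot be told apart from PAX8 depletion in comparisons with sgNTC18. The comparison of the hairpins with each other does not involve the guide RNA. The labels do not say whether replicates came from separate cultures, so that p-values measure the spread between these libraries only.

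Glycolysis turns glucose into pyruvate. Hexokinases trap glucose in the cell, phosphofructokinase commits it to breakdown, aldolase splits it into trioses, and the later enzymes harvest ATP and NADH before pyruvate kinase yields pyruvate. Lactate dehydrogenase reduces pyruvate to lactate, whereas the pyruvate dehydrogenase complex, which is switched off by pyruvate dehydrogenase kinases, sends it into the citric acid cycle. Loss of VHL stabilises hypoxia-inducible factors, which activate many of these genes, and ccRCC is known for a strongly glycolytic metabolism.

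The hairpins match PAX8 at different places. The guide strands are shown because every comparison with shPAX8 rests on them. Each is written from 5′ to 3′ with its seed, bases 2 to 8, in capitals. Both are antisense to PAX8, which lies on the minus strand, and read as the plus strand of hg38. The target of shPAX8-1 lay at chr2:113241690-113241711, in coding exon 7 of the 12 exons of the canonical GENCODE v44 transcript. The target of shPAX8-2 lay at chr2:113218122-113218143, in the 3′ UTR within exon 12.
shPAX8-1: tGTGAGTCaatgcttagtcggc
shPAX8-2: tAGAGTTGtgttaataatggag

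Levels are given as CPM, that is expected counts scaled to TMM-normalized library sizes and not to gene length, and differences as log2 fold changes from edgeR's quasi-likelihood test, with a gene called at a Benjamini-Hochberg adjusted p under 0.05 over all genes tested. Differences printed without a unit are such log2 values. Summed expected counts ranged from 11634419 to 52059375 per library. PAX8 ranged from 292 to 393 CPM in the sgNTC18 libraries of 786-M1A and from 14.8 to 45.5 CPM in its 8 shPAX8 libraries, a log2 fold change of -3.58 ± 0.12 (SE, adjusted p = 5.6e-12). In OS-LM1 the ranges were 245 to 279 and 59.8 to 97.03 CPM, a log2 fold change of -1.73 ± 0.10 (SE, adjusted p = 9.4e-12). The constructs differed in 786-M1A, in which PAX8 was lower with shPAX8-1 at -1.18 ± 0.15 (SE, adjusted p = 4.0e-05) on the log2 scale, and not detectably in OS-LM1, at -0.05 ± 0.12 (SE, adjusted p = 0.8). Renal markers were expressed, but they did not move alike with shPAX8. PAX2 in OS-LM1 ranged from 36.5 to 43.5 CPM with sgNTC18 and 29.2 to 53.8 CPM with shPAX8, which overlapped. In 786-M1A it ranged from 10.4 to 15.2 CPM with sgNTC18, 6.02 to 7.69 CPM with shPAX8-1 and 12.3 to 14.96 CPM with shPAX8-2. CDH6, a kidney cadherin, ranged from 213 to 260.3 CPM with sgNTC18 and 24.98 to 36.9 CPM with shPAX8 in 786-M1A, and from 290.4 to 340.2 and 39.6 to 52.4 CPM in OS-LM1. VIM, vimentin, ranged from 8646 to 8855 and 7528 to 8526 CPM in 786-M1A, and from 8288 to 11428 and 3668 to 5604 CPM in OS-LM1. By contrast CA9, a ccRCC marker, was at or near 0 in 786-M1A. In OS-LM1 it ranged from 5.94 to 6.96 CPM with sgNTC18 and 25.2 to 45.3 CPM with shPAX8. Of 9 markers of immune, endothelial, erythroid and liver cells, 8 stayed at or under 1 CPM in every library, CD3E and HBA1 at 0. The exception was CD14, a monocyte marker, which ranged from 0.205 to 0.356 CPM with sgNTC18 and 0.967 to 2.72 CPM with shPAX8 in 786-M1A, and from 0.197 to 0.527 and 1.61 to 3.65 CPM in OS-LM1. The summed level of these 9 genes ranged from 0.37 to 1.10 CPM with sgNTC18 and from 1.44 to 3.45 CPM with shPAX8 in 786-M1A, and from 0.704 to 1.05 and 2.10 to 4.66 CPM in OS-LM1. The 18S ribosomal RNA RNA18S5 took 4.52 to 5.11% of counts in the sgNTC18 libraries of 786-M1A and 1.18 to 2.05% in its shPAX8 libraries, and 6.06 to 8.16% and 2.49 to 6.53% in OS-LM1. Fold changes also moved with the GC content of the gene, with a rank correlation across genes of -0.25 in 786-M1A and -0.31 in OS-LM1 for shPAX8 against sgNTC18, and of -0.56 between the constructs in 786-M1A. The members had a median GC content of 53.1%, against 47.8% of the genes tested. The part of these markers of renal and other cells, of the ribosomal RNA and of other sources of the GC trend in the results was not tested. An alternative fit that removed each library's GC trend is given below for the members, wherever it ended a call, turned a direction or moved a called value by over 1.5 times. It was not examined for single constructs against sgNTC18 or for the other genes around the pathway. In the shPAX8-1 group of 786-M1A, libraries 1 and 2 stood apart from libraries 3 and 4, with a chi-square per gene of 15.5 and 3.92 within these pairs and of 49.5 to 86.2 between them. The shPAX8-2 group of 786-M1A had a smaller split of this kind, at 4.18 and 12.8 within and 16.4 to 21.2 between. The highest value in any group was 98.4, between libraries 3 and 4 of shPAX8-2 in OS-LM1. This measure grows with the number of counts, so that groups of unlike depth cannot be ranked by it. Pairs of libraries were left out only for shPAX8-1 of 786-M1A.

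In both lines more of these enzymes were lower than higher with shPAX8. Of the 30 members that passed the filter on low counts in 786-M1A, 16 were lower and 6 higher in shPAX8 than in sgNTC18 libraries, which is 53.3% and 20%, whereas 34.7% of the 14452 genes tested were lower and 35.7% higher. In OS-LM1, 18 of 30 were lower and 5 higher, which is 60.0% and 16.7%, against 37.1% and 36.4% of 15049 genes. Without the GC trend 16 members were lower and 6 higher in 786-M1A, and 14 lower and 6 higher in OS-LM1. All genes called in either direction were then 11033 and 11162, in place of 10180 and 11052. The median log2 fold change of the members was -0.30 in 786-M1A and -0.40 in OS-LM1, and that of all genes tested was 0.04 and -0.01. Together the 31 genes held 1.97 to 2.12% of the counts of each sgNTC18 library of 786-M1A and 0.90 to 1.29% with shPAX8, and in OS-LM1 2.05 to 2.25% and 1.54 to 1.84%. The member left out by the filter was FBP1. Bulk RNA cannot tell fewer cells that express a gene from less RNA per cell. The heat map of log2 fold changes shows every tested member in 6 comparisons.

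**Figure D1:**
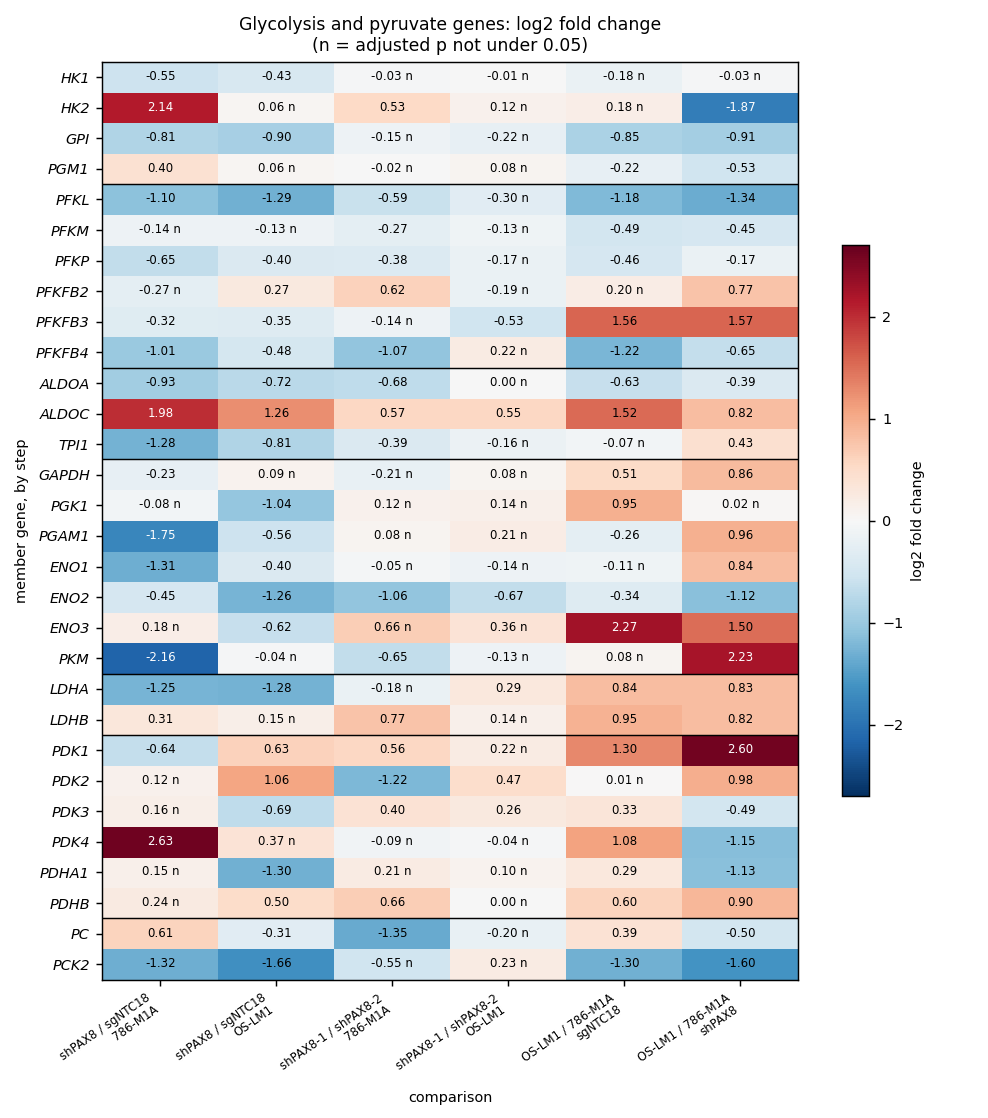
Log2 fold changes of the 30 tested members (rows, in pathway order) in 6 comparisons (columns), with red for higher and blue for lower in the group named first, and n for an adjusted p not under 0.05. PKM fell to -2.16 in 786-M1A and stood at -0.04 in OS-LM1, whereas LDHA stood at -1.25 and -1.28.

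Glucose enters through the hexokinases. HK2, the inducible hexokinase (chr2:74834127-74893359, coordinates from RefSeq GRCh38.p14), rose in 786-M1A. Its sgNTC18 libraries held 36.3, 37.9, 41.1 and 35.4 CPM. Those of shPAX8-1 held 228, 154, 206 and 199 CPM and those of shPAX8-2 161, 159, 113 and 111 CPM. Every shPAX8 library was above every sgNTC18 library, and the log2 fold change was 2.14 ± 0.14 (SE, adjusted p = 4.3e-09). In OS-LM1, HK2 was at 44.1, 45.6, 39.7 and 41.7 CPM in sgNTC18, 38.3, 49.8, 54.9 and 45.9 CPM in shPAX8-1 and 43.5, 44.7, 46.02 and 36.4 CPM in shPAX8-2 libraries. These groups overlapped, the log2 fold change was 0.06 ± 0.10 (SE, adjusted p = 0.6), and the lines differed in their response, at -2.05 ± 0.16 (SE, adjusted p = 5.7e-11). HK1, the housekeeping hexokinase, fell in both lines, at -0.55 ± 0.07 in 786-M1A and -0.43 ± 0.08 in OS-LM1, the latter at -0.25 without the GC trend. GPI, which makes fructose 6-phosphate, was lower, at -0.81 ± 0.09 and -0.90 ± 0.07. PGM1, which links glucose 6-phosphate to glycogen, rose in 786-M1A (0.40 ± 0.07 SE, adjusted p = 7.7e-05) and not detectably in OS-LM1 (0.06 ± 0.07 SE, adjusted p = 0.41).

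At the committed step, PFKL, the liver-type phosphofructokinase (chr21:44300053-44327373), fell in both lines. In OS-LM1 it went from 40.96, 33.8, 32.8 and 33.5 CPM in sgNTC18 to 9.67, 17.8, 14.2 and 11.4 CPM with shPAX8-1 and 15.7, 12.7, 21.3 and 13.5 CPM with shPAX8-2, with no overlap and a log2 fold change of -1.29 ± 0.14 (SE, adjusted p = 1.2e-07). In 786-M1A it was at 72.2, 92.9, 81.9 and 73.5 CPM with sgNTC18, 38.5, 38.8, 20.9 and 21.7 CPM with shPAX8-1 and 45.5, 50.4, 38.7 and 46.2 CPM with shPAX8-2, a log2 fold change of -1.10 ± 0.16 (SE, adjusted p = 1.6e-05). Both groups were below every sgNTC18 library, and libraries 3 and 4 of shPAX8-1 had the lowest values. PFKP, the platelet type and the most abundant of the 3 by TPM, fell, at -0.65 ± 0.06 and -0.40 ± 0.09, but the OS-LM1 call was lost without the GC trend (-0.15, adjusted p = 0.11). PFKM, the muscle type, was not called in either line, at -0.14 ± 0.08 and -0.13 ± 0.10.

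The PFKFB enzymes make and remove fructose 2,6-bisphosphate, the strongest activator of phosphofructokinase. PFKFB4 was lower in both lines, at 20.2, 24.8, 20.4 and 18.9 CPM in sgNTC18, 8, 9.28, 5.84 and 5.14 CPM in shPAX8-1 and 15.4, 16.7, 14.1 and 13.3 CPM in shPAX8-2 libraries of 786-M1A, with a log2 fold change of -1.01 ± 0.14 (SE, adjusted p = 1.2e-05). In OS-LM1 it fell, at -0.48 ± 0.15 (SE, adjusted p = 0.0065), a call that did not hold without the GC trend (-0.18, adjusted p = 0.19). PFKFB3 fell, at -0.32 ± 0.11 and -0.35 ± 0.09, and neither call held without the GC trend (-0.11 and -0.062, adjusted p = 0.13 and 0.43). PFKFB2 was not called in 786-M1A, at -0.27 ± 0.12, where it was called lower without the GC trend (-0.46, adjusted p = 0.0043). It rose in OS-LM1 by 0.27 ± 0.11 (SE, adjusted p = 0.034), a call lost in that fit (0.097, adjusted p = 0.37) and with no filter beyond 1 count. Single libraries also decided calls here. That of PFKFB3 in 786-M1A was lost without sgNTC18 replicate 3 (adjusted p = 0.054), that of PFKFB4 in OS-LM1 without sgNTC18 replicate 2 (adjusted p = 0.077), and that of PFKFB2 in OS-LM1 without any 1 of sgNTC18 replicates 1 and 4, shPAX8-1 replicates 2 and 3 and shPAX8-2 replicate 1 (adjusted p up to 0.093).

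Among the aldolases, which cleave fructose 1,6-bisphosphate, the isozymes moved in opposite directions. ALDOC, the brain-type aldolase (chr17:28573120-28576895), was at 5.18, 5.25, 5.34 and 5.05 CPM in the sgNTC18 libraries of 786-M1A. It reached 32.8, 25.2, 21.4 and 19.4 CPM with shPAX8-1 and 18.8, 18.7, 14.1 and 15.1 CPM with shPAX8-2, a log2 fold change of 1.98 ± 0.15 (SE, adjusted p = 2.6e-08). In OS-LM1 it went from 18.3, 13.1, 15.1 and 13.4 CPM to 42.5, 50.9, 39.6 and 43.03 and to 29.6, 25.7, 30.96 and 31.2 CPM, a log2 fold change of 1.26 ± 0.10 (SE, adjusted p = 1.4e-09). In both lines the lowest shPAX8 library lay above the highest sgNTC18 library, and the rise was larger in 786-M1A (difference between lines -0.70 ± 0.18 SE, adjusted p = 0.0016). ALDOA, the main aldolase, fell, at -0.93 ± 0.15 (SE, adjusted p = 4.0e-05) in 786-M1A and -0.72 ± 0.10 (SE, adjusted p = 2.1e-06) in OS-LM1. TPI1, which interconverts the trioses, fell, at -1.28 ± 0.10 (SE, adjusted p = 1.7e-08) and -0.81 ± 0.08 (SE, adjusted p = 4.4e-08), the latter -0.48 without the GC trend.

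The payoff steps, from glyceraldehyde 3-phosphate to pyruvate, held a wide contrast between the lines. PKM, pyruvate kinase (chr15:72199029-72231591), was at 3322, 3800.4, 3730.2 and 3404 CPM in the sgNTC18 libraries of 786-M1A. It was at 704, 709.8, 559 and 541 CPM with shPAX8-1 and at 979, 1001, 1001 and 977 CPM with shPAX8-2. No library overlapped, and the log2 fold change of -2.16 ± 0.08 (SE, adjusted p = 2.0e-11) was the most negative of any member in this line. In OS-LM1, PKM was at 4102, 3666, 3911 and 3402 CPM with sgNTC18, 3346, 3872, 3389 and 3663 CPM with shPAX8-1 and 3572, 3818, 3951 and 3998 CPM with shPAX8-2. These overlapped, with a log2 fold change of -0.04 ± 0.07 (SE, adjusted p = 0.66), which became 0.17 (adjusted p = 0.045) without the GC trend. The lines differed by 2.15 ± 0.11 (SE, adjusted p = 1.4e-14).

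PGAM1, phosphoglycerate mutase (chr10:97426191-97433444), followed the same order of lines with a fall in both. In 786-M1A it went from 1318, 1306, 1403 and 1324 CPM to 383, 461, 382 and 384 CPM and 345, 346, 389 and 446 CPM, a log2 fold change of -1.75 ± 0.08 (SE, adjusted p = 1.5e-10). In OS-LM1 it went from 1231, 1032, 1149.6 and 1043 CPM to 781, 839.7, 869.8 and 820.4 CPM and 727, 695, 713 and 671 CPM, a log2 fold change of -0.56 ± 0.07 (SE, adjusted p = 3.7e-07), and the lines differed by 1.22 ± 0.11 (SE, adjusted p = 3.5e-10). ENO1, the main enolase, fell, at -1.31 ± 0.07 (SE, adjusted p = 5.2e-10) and -0.40 ± 0.08 (SE, adjusted p = 1.0e-04), the latter -0.21 without the GC trend. PGK1, which makes the first ATP, fell in OS-LM1. There it ranged from 967 to 1149 CPM with sgNTC18 and from 449 to 579.7 CPM with shPAX8, a log2 fold change of -1.04 ± 0.07 (SE, adjusted p = 6.5e-11). In 786-M1A the ranges were 504 to 595 and 413 to 590.4 CPM, which overlapped, and the log2 fold change was -0.08 ± 0.10 (SE, adjusted p = 0.48). The lines differed, at -0.93 ± 0.12 (SE, adjusted p = 3.7e-07). Without the GC trend the value in 786-M1A was -0.29 (adjusted p = 0.0021).

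Of the minor enolases, ENO2, the neuronal type, fell more in OS-LM1 (-1.26 ± 0.08 SE, adjusted p = 8.0e-11) than in 786-M1A (-0.45 ± 0.15 SE, adjusted p = 0.012, -0.27 without the GC trend). In 786-M1A it ranged from 122 to 138 CPM with sgNTC18, 48.8 to 87.2 CPM with shPAX8-1 and 101 to 158 CPM with shPAX8-2. ENO3, the muscle type, fell in OS-LM1 at -0.62 ± 0.13 (SE, adjusted p = 2.3e-04), or -0.31 without the GC trend, and was not called in 786-M1A (0.18 ± 0.23 SE, adjusted p = 0.49). GAPDH, often used as a reference gene, was called lower in 786-M1A at -0.23 ± 0.09 (SE, adjusted p = 0.039), a direction that turned without the GC trend (0.034, adjusted p = 0.62). Leaving out any 1 of 8 libraries of 786-M1A ended the call too (adjusted p up to 0.105), these being replicates 2 to 4 of sgNTC18, 3 and 4 of shPAX8-1 and 1, 3 and 4 of shPAX8-2. In OS-LM1 it was at 0.09 ± 0.09 (SE, adjusted p = 0.36), and at 0.42 (adjusted p = 1.2e-04) without the GC trend. The most abundant members per length, by TPM in the sgNTC18 libraries of 786-M1A, were GAPDH at 5236 ± 154, ALDOA at 4787 ± 435 and PKM at 2657 ± 129 (mean ± SD, n = 4). Several of these genes, among them GAPDH, PGAM1, PKM, PGK1 and LDHA, have near-identical processed pseudogenes with which reads can be shared, and their counts carry that uncertainty.

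At the fork between lactate and the mitochondrion, LDHA, the isozyme that favours lactate (chr11:18394563-18408425), fell in both lines. It was at 1664, 1412, 1566 and 1594 CPM in the sgNTC18 libraries of 786-M1A, 511, 552, 673 and 699 CPM with shPAX8-1 and 607, 612, 756 and 783 CPM with shPAX8-2. In OS-LM1 it was at 3009, 2395, 2984 and 2779 CPM, 1359, 1220.2, 1273 and 1307 CPM and 965, 1069.8, 951 and 1155 CPM. No shPAX8 library reached the sgNTC18 range of its line. The log2 fold changes were -1.25 ± 0.10 (SE, adjusted p = 3.3e-08) and -1.28 ± 0.07 (SE, adjusted p = 9.3e-12), and their difference was -0.01 ± 0.13 (SE, adjusted p = 0.98). LDHB, which favours pyruvate, was called higher in 786-M1A over both constructs by 0.31 ± 0.13 (SE, adjusted p = 0.043), with 0.69 ± 0.15 (SE, adjusted p = 6.2e-04) for shPAX8-1 and -0.08 ± 0.15 (SE, adjusted p = 0.67) for shPAX8-2. The call over both was lost without the GC trend (0.21, adjusted p = 0.085). In OS-LM1 LDHB was at 0.15 ± 0.09 (SE, adjusted p = 0.13). The call in 786-M1A was also lost without shPAX8-1 libraries 3 and 4 (0.16, adjusted p = 0.2), and without any 1 of 8 libraries (adjusted p up to 0.154), namely replicates 2 to 4 of sgNTC18, 2 to 4 of shPAX8-1 and 3 and 4 of shPAX8-2.

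**Figure D2:**
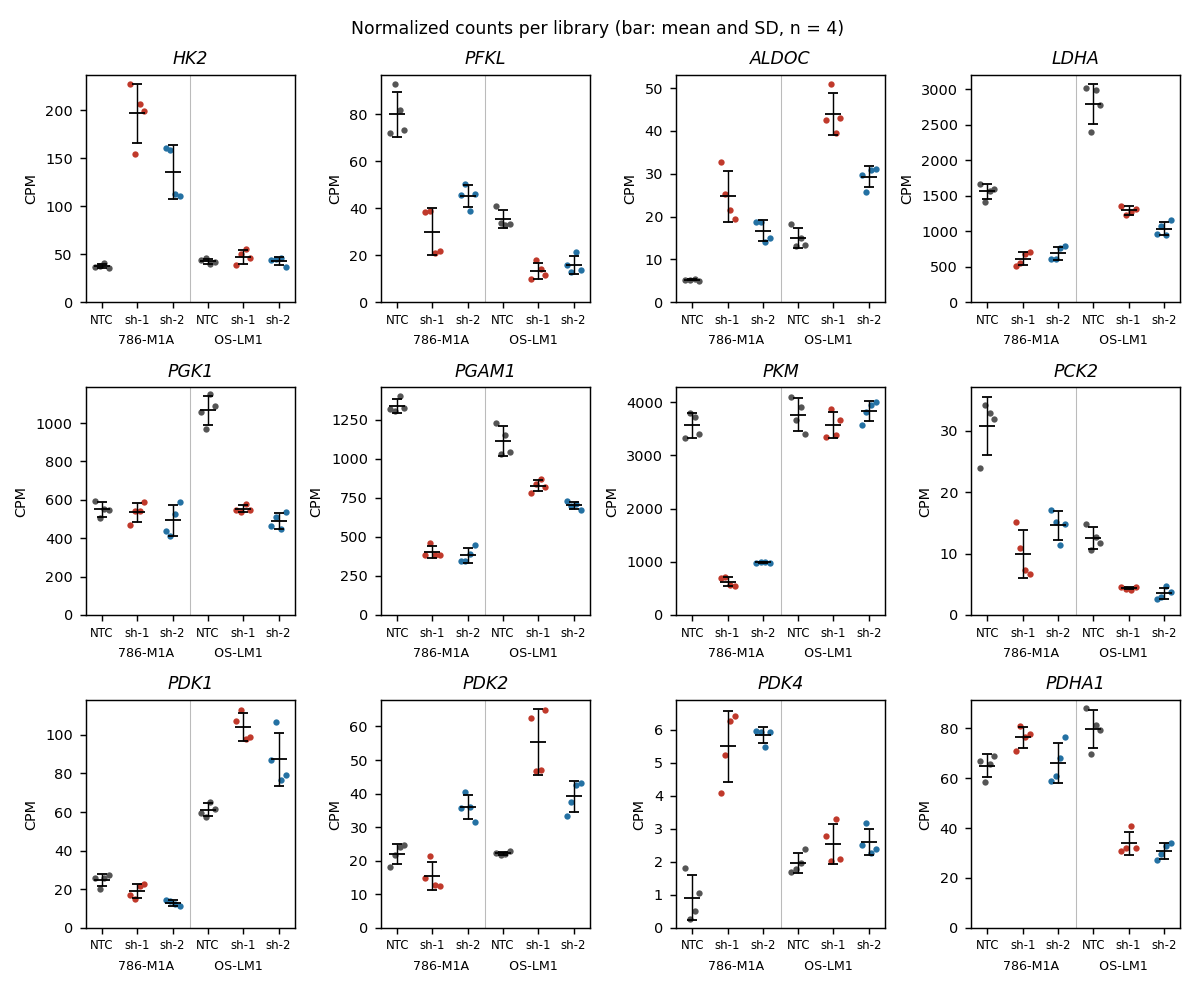
Normalized CPM (linear axis from 0) of 12 members in each library, with NTC for sgNTC18 and sh-1 and sh-2 for the hairpins, and bars for the mean and SD of 4 libraries. PKM and HK2 separated shPAX8 from sgNTC18 libraries in 786-M1A only, PDHA1 and PGK1 in OS-LM1 only, and LDHA in both lines.

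Pyruvate dehydrogenase kinases (PDK1 to PDK4) close the gate to the citric acid cycle. PDK4, which responds to fasting and fatty acids (chr7:95583499-95596516), was at 1.81, 0.276, 0.518 and 1.05 CPM in the sgNTC18 libraries of 786-M1A. It was at 4.08, 5.23, 6.26 and 6.41 CPM with shPAX8-1 and 5.97, 5.93, 5.47 and 5.93 CPM with shPAX8-2. All shPAX8 libraries were above all sgNTC18 libraries, with a log2 fold change of 2.63 ± 0.32 (SE, adjusted p = 3.2e-06), at levels where few reads stand behind each value. In OS-LM1 it was not called (0.37 ± 0.18 SE, adjusted p = 0.07), and the lines differed, at -2.22 ± 0.36 (SE, adjusted p = 7.5e-06).

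PDK1 moved in opposite directions in the lines. In 786-M1A it was at 26.00, 20.1, 25.7 and 27.3 CPM with sgNTC18, 17.2, 14.7, 21.5 and 22.98 CPM with shPAX8-1 and 14.2, 13.9, 12.4 and 11.1 CPM with shPAX8-2, a log2 fold change of -0.64 ± 0.13 (SE, adjusted p = 4.5e-04). The shPAX8-1 libraries overlapped sgNTC18 and the shPAX8-2 libraries did not. In OS-LM1 it rose from 59.7, 57.5, 65.4 and 61.8 CPM to 107, 113, 97.7 and 98.8 and 86.98, 107, 76.6 and 79.03 CPM, a log2 fold change of 0.63 ± 0.09 (SE, adjusted p = 3.5e-06) that was 0.33 without the GC trend. The difference between lines was 1.30 ± 0.16 (SE, adjusted p = 9.1e-08). PDK2, the most widely expressed kinase, rose in OS-LM1 from 22.2, 21.8, 21.9 and 22.8 CPM to 62.4, 46.6, 47.2 and 65.04 CPM with shPAX8-1 and 33.3, 37.5, 42.5 and 43.3 CPM with shPAX8-2, a log2 fold change of 1.06 ± 0.10 (SE, adjusted p = 1.9e-08). In 786-M1A it was at 18.1, 21.6, 23.98 and 24.5 CPM with sgNTC18, 14.95, 21.5, 12.8 and 12.4 CPM with shPAX8-1 and 35.7, 40.4, 36.1 and 31.6 CPM with shPAX8-2. Its mean over the constructs was not called (0.12 ± 0.15 SE, adjusted p = 0.48), or was called at 0.42 (adjusted p = 0.0025) without the GC trend. PDK3 fell in OS-LM1 at -0.69 ± 0.08 (SE, adjusted p = 2.1e-07) and was not called in 786-M1A (0.16 ± 0.11 SE, adjusted p = 0.23).

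The target of these kinases behaved differently in the lines. PDHA1, the catalytic subunit of pyruvate dehydrogenase (chrX:19343927-19361718), went in OS-LM1 from 88.3, 69.8, 81.2 and 79.4 CPM to 30.8, 32.2, 40.7 and 31.9 CPM with shPAX8-1 and 27.2, 29.6, 32.8 and 34.2 CPM with shPAX8-2, without overlap. The log2 fold change was -1.30 ± 0.09 (SE, adjusted p = 5.9e-11). In 786-M1A it ranged from 58.5 to 69.1 CPM with sgNTC18 and from 58.8 to 80.9 CPM with shPAX8, a log2 fold change of 0.15 ± 0.09 (SE, adjusted p = 0.15), and the lines differed, at -1.42 ± 0.13 (SE, adjusted p = 6.6e-10). PDHB, the beta subunit, rose in OS-LM1 by 0.50 ± 0.10 (SE, adjusted p = 1.4e-04) and was not called in 786-M1A (0.24 ± 0.12 SE, adjusted p = 0.085).

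Among enzymes that feed carbon back, PCK2, the mitochondrial phosphoenolpyruvate carboxykinase (chr14:24094171-24104125), fell in both lines. In 786-M1A it was at 23.9, 34.2, 32.9 and 31.9 CPM with sgNTC18, 15.1, 10.9, 7.28 and 6.63 CPM with shPAX8-1 and 17.1, 15.2, 11.4 and 14.8 CPM with shPAX8-2. In OS-LM1 it was at 14.8, 10.6, 12.7 and 11.7 CPM, 4.57, 4.23, 4.13 and 4.48 CPM and 2.66, 2.98, 4.67 and 3.78 CPM, the lowest log2 fold change of any member in this line. All depleted libraries lay below all control libraries, with log2 fold changes of -1.32 ± 0.18 (SE, adjusted p = 1.1e-05) and -1.66 ± 0.13 (SE, adjusted p = 5.3e-10). PC, pyruvate carboxylase, which makes oxaloacetate, was called higher in 786-M1A over both constructs by 0.61 ± 0.15 (SE, adjusted p = 0.0018). There it ranged from 6.24 to 8.13 CPM with sgNTC18, 5.08 to 8.48 CPM with shPAX8-1 and 15.9 to 21.3 CPM with shPAX8-2. Its call of -0.31 ± 0.12 (SE, adjusted p = 0.025) in OS-LM1 turned to 0.037 (adjusted p = 0.75) without the GC trend. That call was also lost without any 1 of replicates 1 and 2 of sgNTC18 and 1 and 4 of shPAX8-1 (adjusted p up to 0.125). FBP1, the gluconeogenic fructose bisphosphatase, had 0 counts in all 4 sgNTC18 libraries of 786-M1A, which allows up to 0.096 to 0.168 CPM of raw library size when 3 counts are taken as the limit, and 1 to 19 counts per library in the shPAX8 libraries of OS-LM1, too few to test. In the other libraries it had 0 or 1. This limit covers counting error only.

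The hairpins could be compared with each other without the guide RNA. In 786-M1A, 7 members were higher and 10 lower with shPAX8-1 than with shPAX8-2, against 24.2% and 22.9% of all genes tested, that is 23.3% and 33.3% of members. Without the GC trend 9 members were higher and 7 lower there, so that the larger side changed. All genes called in either direction were then 6794, in place of 6803. In OS-LM1, 4 were higher and 2 lower, which is 13.3% and 6.67%, against 12.4% and 16.7%. In 786-M1A, PC was lower with shPAX8-1 at -1.35 ± 0.17 (SE, adjusted p = 3.9e-05), with 7.95, 8.48, 6.38 and 5.08 CPM against 21.3, 17.9, 16.2 and 15.9 CPM. PDK2 was lower, at -1.22 ± 0.17 (SE, adjusted p = 9.2e-05) and PFKFB4 at -1.07 ± 0.17 (SE, adjusted p = 3.0e-04). LDHB was higher by 0.77 ± 0.15 (SE, adjusted p = 9.3e-04), with 154, 200.4, 235 and 245 CPM against 101, 112, 143 and 135 CPM, PDHB by 0.66 ± 0.14 (SE, adjusted p = 0.0016) and PFKFB2 by 0.62 ± 0.15 (SE, adjusted p = 0.0038). PDHB was at 19.9, 23.2, 24.7 and 26.96 CPM against 13.4, 13.8, 15.7 and 17.1 CPM and PFKFB2 at 8.05, 7.91, 6.98 and 7.68 CPM against 6.14, 4.91, 4.56 and 4.27 CPM, and neither gene overlapped between constructs.

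Several of these values moved with the GC correction and with the split within shPAX8-1. Without the GC trend PDK2 was at -0.77, ALDOA at -0.43 in place of -0.68 and ALDOC at 0.86 in place of 0.57, and 6 calls were lost, those of PDK1, PDK3, PFKL, PFKM, PFKP and TPI1, which stood at 0.17, 0.083, -0.066, -0.13, -0.099 and -0.015. Leaving out libraries 3 and 4 of shPAX8-1 ended the calls of ALDOA, PDK1, PDK3, PFKL, PFKM and TPI1, at -0.36, 0.30, 0.21, -0.22, -0.25 and -0.19. Leaving out libraries 1 and 2 moved PFKL from -0.59 to -1.10, ALDOA to -1.08 and TPI1 to -0.63 and ended the call of ALDOC (0.28, adjusted p = 0.094). Of single libraries, leaving out shPAX8-1 replicate 3 or 4 or shPAX8-2 replicate 2 ended the calls of PDK3, PFKL and PFKM, and leaving out shPAX8-2 replicate 4 those of PDK3 and PFKM (adjusted p up to 0.093).

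In OS-LM1 fewer members were called between the constructs. ENO2 was lower with shPAX8-1 at -0.67 ± 0.10 (SE, adjusted p = 7.3e-05), with 33.8, 36.1, 31.6 and 34.3 CPM against 57.5, 41.8, 60.2 and 51.8 CPM, and PFKFB3 at -0.53 ± 0.10 (SE, adjusted p = 8.3e-04), with 145, 176, 152 and 149 CPM against 228, 186, 260.0 and 205 CPM. ALDOC was higher by 0.55 ± 0.11 (SE, adjusted p = 9.7e-04), PDK2 by 0.47 ± 0.11 (SE, adjusted p = 0.0045) and LDHA by 0.29 ± 0.09 (SE, adjusted p = 0.02). PDK3, the fourth member higher with shPAX8-1, stood at 0.26 ± 0.10 (SE, adjusted p = 0.046). The call of LDHA was lost without replicate 1 of either construct (adjusted p up to 0.065), and that of PDK3 without any 1 of shPAX8-1 replicates 1 and 4 and shPAX8-2 replicates 1, 3 and 4 (adjusted p up to 0.145).

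The difference between constructs itself differed between lines for 10 members, 7 towards higher values in OS-LM1 (23.3%, against 12.7% of 15665 genes) and 3 towards lower values (10.0%, against 14.5%). It was 1.71 ± 0.21 (SE, adjusted p = 1.7e-06) for PDK2, 1.32 ± 0.26 (SE, adjusted p = 4.1e-04) for PFKFB4 and 1.18 ± 0.23 (SE, adjusted p = 3.8e-04) for PC, and -0.78 ± 0.19 (SE, adjusted p = 0.0029) for PFKFB2, -0.63 ± 0.18 (SE, adjusted p = 0.0098) for PDHB and -0.59 ± 0.18 (SE, adjusted p = 0.018) for LDHB. Without libraries 3 and 4 of shPAX8-1 in 786-M1A the calls of PDHB and LDHB were lost (-0.50 and -0.36, adjusted p = 0.071 and 0.19), and that of LDHB also without replicate 4 alone (adjusted p = 0.0504).

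Side by side, each construct against the shared sgNTC18 libraries gave, for shPAX8-1 and shPAX8-2 in turn, PKM at -2.48 and -1.83, HK2 at 2.41 and 1.87 and LDHA at -1.34 and -1.16 in 786-M1A. PC stood at -0.06 ± 0.17 with shPAX8-1 and at 1.29 ± 0.17 with shPAX8-2 there, PDK2 at -0.49 ± 0.17 and 0.73 ± 0.17, and ENO2 at -0.98 ± 0.17 and 0.08 ± 0.17, so that for these genes the mean over both constructs lay between unlike values. LDHB, too, stood at 0.69 ± 0.15 and -0.08 ± 0.15. Other members called over both constructs and with 1 of them but not the other were GAPDH and PFKFB3 in 786-M1A and PC, PFKFB2, PFKFB3 and PFKFB4 in OS-LM1, of which the constructs differed for PFKFB3 in OS-LM1, at -0.61 ± 0.10 and -0.08 ± 0.10. In OS-LM1, PCK2 stood at -1.54 and -1.77, PDHA1 at -1.26 and -1.35 and LDHA at -1.14 and -1.42. Values of single constructs against sgNTC18 were not examined without the GC trend.

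The lines without a hairpin were compared through their sgNTC18 libraries. Relative to 786-M1A, 13 members were higher in OS-LM1 and 10 lower, which is 43.3% and 33.3%, against 32% and 31% of 15665 genes. ENO3 was higher by 2.27 ± 0.20 (SE, adjusted p = 2.0e-10), with 8.76, 11.95, 8.29 and 9.97 CPM in OS-LM1 against 1.64, 2.27, 1.59 and 2.68 CPM in 786-M1A. PFKFB3 was higher by 1.56 ± 0.12 (SE, adjusted p = 1.8e-11), with 276, 221, 224 and 213 CPM against 72.8, 84.9, 84.9 and 73.5 CPM, and ALDOC by 1.52 ± 0.15 (SE, adjusted p = 1.5e-09). PCK2 was lower, at -1.30 ± 0.19 (SE, adjusted p = 1.5e-06), PFKFB4 at -1.22 ± 0.17 (SE, adjusted p = 6.4e-07) and PFKL at -1.18 ± 0.19 (SE, adjusted p = 5.5e-06), the last at -0.70 without the GC trend. The calls of PDHA1 and PDK3 were lost in that fit (0.10 and 0.096, adjusted p = 0.33 and 0.24), and PC, PDHB and PGM1 moved to 0.61, 0.38 and -0.38 from 0.39, 0.60 and -0.22. The call of PDK3 was also lost without 786-M1A replicate 2 (adjusted p = 0.064), that of PDHA1 without it or OS-LM1 replicate 1 (adjusted p up to 0.069), that of PGM1 without OS-LM1 replicate 2 (adjusted p = 0.0595), that of PC without replicate 1 or 4 of 786-M1A or 1 or 2 of OS-LM1 (adjusted p up to 0.106), and that of ENO2 (-0.34) without any 1 of replicates 2 to 4 of either line (adjusted p up to 0.102).

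Among the 8 shPAX8 libraries of each line, 14 members were higher in OS-LM1 and 14 lower, 46.7% each, against 41.7% and 41.5% of genes. PDK1 was higher by 2.60 ± 0.10 (SE, adjusted p = 3.8e-19), PKM by 2.23 ± 0.07 (SE, adjusted p = 4.3e-21) and PFKFB3 by 1.57 ± 0.09 (SE, adjusted p = 3.2e-15). HK2 was lower, at -1.87 ± 0.10 (SE, adjusted p = 5.1e-16), PCK2 at -1.60 ± 0.15 (SE, adjusted p = 1.6e-10) and PFKL at -1.34 ± 0.14 (SE, adjusted p = 1.5e-09), or -0.76 without the GC trend, a fit in which PGK1 turned from 0.02 to -0.22 (adjusted p = 7.1e-04) and the call of PFKP was lost (-0.047, adjusted p = 0.51). The latter was also lost without OS-LM1 shPAX8-1 replicate 1 (adjusted p = 0.051). Values that moved by over 1.5 times in that fit were those of PC (-0.19), PDK3 (-0.76), TPI1 (0.69) and ALDOA (-0.26), from -0.50, -0.49, 0.43 and -0.39, and ALDOA stood at -0.20 without libraries 1 and 2 of 786-M1A shPAX8-1.

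The response to shPAX8 differed between lines for 20 of 30 members. For 10 it was higher in OS-LM1 (33.3%, against 29.9% of genes) and for 10 lower (33.3%, against 28.8%). PKM, PDK1 and PGAM1 led the former at 2.15 ± 0.11 (SE, adjusted p = 1.4e-14), 1.30 ± 0.16 (SE, adjusted p = 9.1e-08) and 1.22 ± 0.11 (SE, adjusted p = 3.5e-10). PDK4, HK2 and PDHA1 led the latter at -2.22 ± 0.36 (SE, adjusted p = 7.5e-06), -2.05 ± 0.16 (SE, adjusted p = 5.7e-11) and -1.42 ± 0.13 (SE, adjusted p = 6.6e-10). Members without a called difference included LDHA, GPI, PFKFB3 and PFKM, at -0.01 ± 0.13, -0.06 ± 0.12, 0.01 ± 0.15 and 0.04 ± 0.13 (± SE). The plot of both lines' responses shows the 2 sets. PAX8 itself ranged from 14.8 to 45.5 CPM in the shPAX8 libraries of 786-M1A and from 59.8 to 97.03 CPM in those of OS-LM1. In these differences the line cannot be told apart from the depth of PAX8 depletion.

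**Figure D3:**
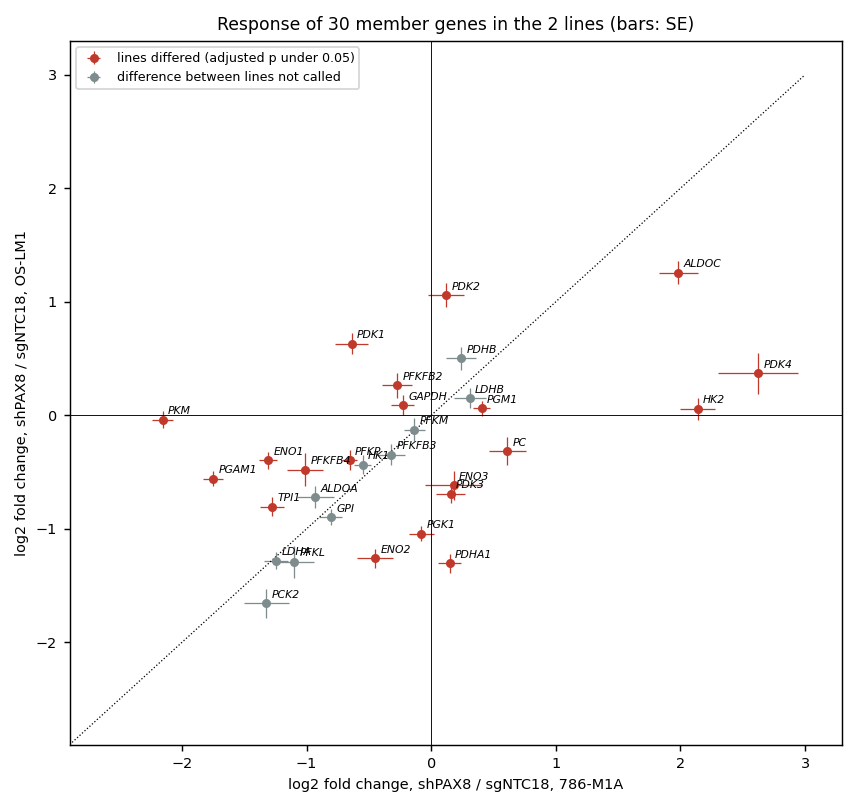
Log2 fold change of shPAX8 against sgNTC18 in 786-M1A (horizontal axis) and OS-LM1 (vertical axis) for 30 members, with standard errors as bars, the line of equal response dotted, and red for members whose response differed between lines. PKM and PDHA1 lay near different axes, at -2.16 and -0.04 and at 0.15 and -1.30, whereas LDHA and PCK2 lay near the dotted line.

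Isozyme shares of summed TPM, which corrects for length, were taken among the members of each family only and were not tested. Isozymes that are not members, such as HKDC1 and LDHC, were left out of the sums. HK1 made up 92.2% ± 0.429 of hexokinase TPM in the sgNTC18 libraries of 786-M1A (mean ± SD, n = 4), 60.1% ± 4.25 with shPAX8-1 and 69.1% ± 4.66 with shPAX8-2. In OS-LM1 it was at 90.1% ± 1.16, 86.2% ± 0.543 and 87.1% ± 1.27. LDHB held 11.8% ± 0.289 of lactate dehydrogenase TPM with sgNTC18, 34.9% ± 1.96 with shPAX8-1 and 21.7% ± 0.998 with shPAX8-2 in 786-M1A, and 12.6% ± 1.26, 26.8% ± 3.75 and 29.04% ± 1.77 in OS-LM1. PFKFB3 held 71.2% ± 1.73 of its family in 786-M1A sgNTC18 libraries and 92.9% ± 1.39 in those of OS-LM1. PDK3 held 20.3% ± 1.29 of PDK TPM in OS-LM1 with sgNTC18 and 5.08% ± 0.821 and 5.11% ± 0.567 with the hairpins, and PDK2 held 34.8% ± 1.8, 52.6% ± 5.57 and 49.3% ± 4.34. Across 7 families and 6 groups the leading isozyme was the same by CPM, which does not correct for length, in 37 of 42 combinations. In shPAX8-1 libraries of 786-M1A the leading hexokinase was HK2 by CPM, with HK1 at 43.3% of the family, and the other 4 exceptions were in the PDK family.

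**Figure D4:**
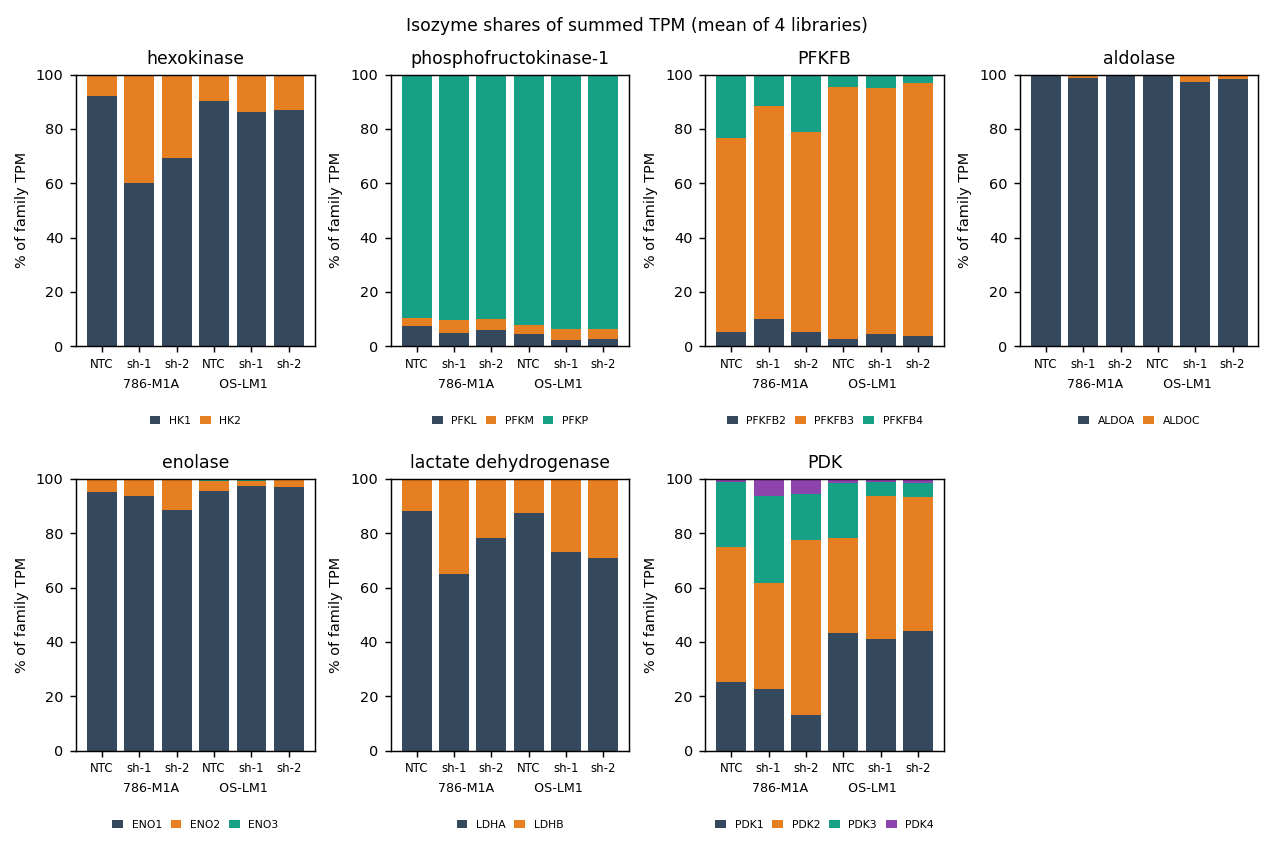
Share of each isozyme in the summed TPM of the members of its family (stacked bars from 0 to 100%, mean of 4 libraries). Bars stand for the 3 constructs (NTC for sgNTC18, sh-1 and sh-2 for the hairpins) in each line. The mean HK2 share went from 7.84% with sgNTC18 to 39.9% and 30.9% with the hairpins in 786-M1A and from 9.92% to 13.8% and 12.9% in OS-LM1, and the mean LDHB share was larger with the hairpins in both lines.

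Promoters were searched for 5-base ACGTG, a core of the hypoxia response element that is also contained in the 6-base CACGTG bound by MYC-type factors, on both strands. Of 35116 RefSeq promoter windows (250 bases before to 50 after the start, GRCh38.p14), 21.4% held ACGTG, 36.5% GCGTG and 7.26% CACGTG. Of the 59 windows of the 30 members with an entry, 37.3%, 39.0% and 13.6% did, and 18 of the 30 genes had ACGTG in at least 1 window. The 250 bases before the start are shown for LDHA, which fell in both lines, ALDOC, which rose in both, and PKM, which fell in 786-M1A only, with ACGTG or its reverse complement in capitals. LDHA (chr11:18394313-18394562, plus strand) had 5 matches, ALDOC (chr17:28576896-28577145, minus strand) 3 and PKM (chr15:72231191-72231440, minus strand) 0. Where a gene had several windows, the one with the most ACGTG matches was shown. The other window of LDHA (chr11:18396101-18396400) had 0 matches, and ALDOC and PKM had no other window. The start listed for PKM lies inside the span of the gene, which has other starts. Matches counted on either strand count a palindromic CACGTG 2 times, and a match is a description of the letters only.
LDHA: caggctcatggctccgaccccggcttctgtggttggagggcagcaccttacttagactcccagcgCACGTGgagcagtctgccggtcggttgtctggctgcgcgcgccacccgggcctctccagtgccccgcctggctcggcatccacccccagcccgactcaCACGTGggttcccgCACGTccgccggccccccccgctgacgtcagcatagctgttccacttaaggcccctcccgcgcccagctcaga
ALDOC: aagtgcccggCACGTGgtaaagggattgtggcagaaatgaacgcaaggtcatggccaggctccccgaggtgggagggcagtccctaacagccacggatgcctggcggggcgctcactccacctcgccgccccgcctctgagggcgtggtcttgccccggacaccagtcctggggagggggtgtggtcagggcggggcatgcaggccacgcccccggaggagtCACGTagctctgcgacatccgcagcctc
PKM: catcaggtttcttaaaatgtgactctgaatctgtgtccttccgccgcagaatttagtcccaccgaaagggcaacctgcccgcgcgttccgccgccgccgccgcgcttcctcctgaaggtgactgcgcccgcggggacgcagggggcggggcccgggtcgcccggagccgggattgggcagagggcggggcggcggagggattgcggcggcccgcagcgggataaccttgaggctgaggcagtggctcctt

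Genes around the pathway were taken from 7 lists. Their counts stand against 35.7% of all genes tested higher and 34.7% lower with shPAX8 in 786-M1A, and 36.4% and 37.1% in OS-LM1, and several are near these shares. Values of these genes were not examined without the GC trend. Among glucose and lactate transporters, 4 of 10 tested genes of 12 listed were higher and 5 lower with shPAX8 in 786-M1A, and 6 and 4 of 10 in OS-LM1. SLC16A7, a monocarboxylate transporter, rose by 3.10 ± 0.21 and 1.40 ± 0.12, SLC2A3, a neuronal-type glucose transporter, rose in 786-M1A by 2.34 ± 0.10, and SLC2A6 fell there, at -3.37 ± 0.18 (log2 fold change ± SE). SLC2A12, a glucose transporter, rose in OS-LM1 by 4.05 ± 0.23, and BSG, the chaperone of lactate transporters, fell there, at -1.21 ± 0.08, and its log2 difference of shPAX8-1 from shPAX8-2 was -1.32 ± 0.09. Of other glycolytic isozymes and regulators, 2 of 9 tested of 18 listed were higher and 4 lower in 786-M1A, and 4 and 3 of 8 in OS-LM1. TIGAR, which lowers fructose 2,6-bisphosphate, fell, at -0.94 ± 0.15 in 786-M1A and rose by 1.13 ± 0.10 in OS-LM1. Of 8 genes of pyruvate entry, 4 were higher and 2 lower in 786-M1A, and 1 and 4 in OS-LM1. MPC2, a mitochondrial pyruvate carrier subunit, fell, at -1.50 ± 0.11 and -1.58 ± 0.08, while PDP1 and PDP2, the phosphatases that reactivate pyruvate dehydrogenase, rose by 1.24 ± 0.10 and 1.44 ± 0.10 in 786-M1A.

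Of the gluconeogenesis and malate shuttle genes, 1 of 10 tested of 12 was higher and 5 lower in 786-M1A, and 3 and 6 in OS-LM1. SLC37A4, the glucose 6-phosphate transporter of the endoplasmic reticulum, fell, at -1.91 ± 0.13 and -2.898 ± 0.09, and GOT2, the mitochondrial aspartate aminotransferase, at -0.87 ± 0.08 and -0.94 ± 0.07. ME3, a mitochondrial malic enzyme, rose by 1.63 ± 0.22 in 786-M1A and fell, at -0.69 ± 0.12 in OS-LM1. Of 11 tested glycogen genes of 14, 7 were higher and 3 lower in 786-M1A, and 8 and 3 in OS-LM1. GYS1, glycogen synthase, fell, at -1.30 ± 0.15 and -1.01 ± 0.09, and PPP1R3B, a glycogen-targeting phosphatase subunit, rose by 2.30 ± 0.14 in 786-M1A. In the pentose phosphate pathway, 1 of 8 tested genes of 9 was higher in each line, and 4 and 5 were lower. TALDO1, transaldolase, fell, at -1.09 ± 0.08 and -1.39 ± 0.07, and TKT, transketolase, rose in 786-M1A by 0.52 ± 0.11 and fell in OS-LM1 at -0.48 ± 0.07. Of 18 citric acid cycle genes, 4 were higher and 8 lower in 786-M1A, and 3 and 8 in OS-LM1, with DLST, a subunit of the 2-oxoglutarate dehydrogenase complex, lower, at -1.21 ± 0.11 and -1.14 ± 0.09. The constructs differed for several listed genes. For example, the log2 difference of shPAX8-1 from shPAX8-2 in 786-M1A was -1.21 ± 0.18 for GYS1, -1.08 ± 0.13 for DLST and 0.94 ± 0.22 for ME3. In OS-LM1 it was -0.60 ± 0.11 for DLST and -0.54 ± 0.12 for SLC37A4.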

How the data were processed

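RNA was measured in 24 libraries of 2 ccRCC lines with 3 constructs each, 4 per group, with groups taken from the labels. The labels name the KAPA Stranded mRNA kit and the study's methods another maker's kits, and the strand setting of the counting is not given in the sources used here. Per the labels and methods, the authors aligned reads with Bowtie2 to hg38 and deposited RSEM expected counts and TPM per gene. TPM used the full transcript length. The expected counts, of which 28.0% were fractional, were rounded.

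Genes were filtered with filterByExpr, scaled by TMM and tested with robust quasi-likelihood fits in edgeR 4.0.16 (R 4.3.3), with Benjamini-Hochberg adjustment over all genes. Comparisons within a line used its 12 libraries. Comparisons of lines, and differences between lines in an effect, used all 24, as did CPM levels. The procedure was tested on simulated data. Alternatives were DESeq2 1.42.0, its size factors, no filter, stricter thresholds, a replicate block, a GC correction and leaving out libraries. The GC correction was a spline with 5 degrees of freedom per library. It used the GC content of the longest GENCODE v44 transcript of each gene symbol, for genes where one was found. The members, gene lists and rules were chosen with earlier results of these data known. Full values were given for the 3 called members with the largest log2 values in each direction of each comparison, and values for at most 3 called genes of each list in a comparison, those with the largest log2 values. Intervals across replicates are SE or SD. Sequences of promoters are from RefSeq GRCh38.p14 and those of the hairpins from the study's materials. Windows were matched by symbol, which succeeded for 30 of 31 members, all but PFKFB2.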

Additional observations from a re-analysis of the deposited data

Results flagged for a closer look

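The response to shPAX8 differed between the lines by the test of the difference itself (edgeR, adjusted p under 0.05) for 20 members. It was higher in OS-LM1 for 10 and lower for 10, 33.3% each, against 29.9% and 28.8% of all genes tested. The line cannot be told apart here from the depth of PAX8 depletion, which differed between the lines. Among the hexokinases, phosphofructokinases and their regulators, the log2 difference of OS-LM1 from 786-M1A was -2.05 for HK2, 0.29 for PFKP, 0.57 for PFKFB2 and 0.57 for PFKFB4, and it was -0.31 for PGM1. Among the aldolase and payoff enzymes it was -0.70 for ALDOC, 0.50 for TPI1, 0.35 for GAPDH, -0.93 for PGK1, 1.22 for PGAM1, 0.94 for ENO1, -0.78 for ENO2, -0.77 for ENO3 and 2.15 for PKM. Among the enzymes that handle pyruvate it was 1.30 for PDK1, 0.97 for PDK2, -0.81 for PDK3, -2.22 for PDK4, -1.42 for PDHA1 and -0.89 for PC. The calls of GAPDH, PFKFB4 and PFKP were lost when 1 library was left out. For GAPDH these were 786-M1A sgNTC18 replicate 3, OS-LM1 sgNTC18 replicate 2 or replicate 3 of either construct in 786-M1A (adjusted p up to 0.078). For PFKFB4 they were sgNTC18 replicate 2 of 786-M1A or 3 of OS-LM1 or shPAX8-1 replicate 3 of 786-M1A (adjusted p up to 0.07), and for PFKP OS-LM1 sgNTC18 replicate 2 or replicate 3 of either construct in 786-M1A (adjusted p up to 0.081).

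The difference between the hairpins differed between lines for 10 members. It moved towards higher values in OS-LM1 for 7 (23.3%, against 12.7% of all genes tested) and towards lower values for 3 (10.0%, against 14.5%). The log2 value was 1.71 for PDK2, 1.32 for PFKFB4, 1.18 for PC, 0.80 for PCK2, 0.70 for ALDOA, 0.55 for PKM and 0.50 for LDHA, and it was -0.78 for PFKFB2, -0.63 for PDHB and -0.59 for LDHB. The call of PCK2 was lost without any 1 of 12 of the 16 hairpin libraries (adjusted p up to 0.103), and that of ALDOA without 786-M1A shPAX8-1 replicate 3 or 4, 786-M1A shPAX8-2 replicate 2 or OS-LM1 shPAX8-1 replicate 4 (adjusted p up to 0.057). Without libraries 1 and 2 of 786-M1A shPAX8-1 the call of LDHA was lost (0.34, adjusted p = 0.07).

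Of 186 groups of 4 libraries, 9 had 1 library far from the other 3, and such a gap is met by chance in about 1 of 20 groups. In 786-M1A these were sgNTC18 replicate 1 for HK1 at 209.7 CPM, sgNTC18 replicate 2 for PFKFB2 at 8.90 CPM, shPAX8-1 replicate 2 for PGAM1 at 461 CPM and shPAX8-2 replicate 3 for PDK4 at 5.47 CPM. In OS-LM1 they were sgNTC18 replicate 1 for PFKL at 41.0 CPM, shPAX8-1 replicate 2 for PFKFB4 at 7.83 CPM and TPI1 at 432 CPM, and shPAX8-1 replicate 3 for LDHB at 379.6 CPM and PDHA1 at 40.7 CPM.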

How the results depend on the processing

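Of 240 member values, DESeq2 kept the direction and side of the threshold of 237 and its size factors of all 240, and the GC correction of 205. The GC correction reversed 6 values, for shPAX8 against sgNTC18 GAPDH at 0.034 in 786-M1A and PC at 0.037 and PKM at 0.17 in OS-LM1, between the hairpins in 786-M1A GAPDH at 0.19 and HK1 at 0.17, and between lines with shPAX8 PGK1 at -0.22. It gave 7 members higher with shPAX8-1 than shPAX8-2 in OS-LM1 (5094 genes called in all, in either direction). It gave 5 lower in the difference between lines in that contrast (4860 genes in all). With adjusted p under 0.01, all genes called were 4329 between the hairpins in 786-M1A, 2703 in OS-LM1 (2 members higher), and 2449 for the difference between lines in that contrast (4 members higher). With a log2 fold change over 0.58 in size, 3 members were higher and 11 lower with shPAX8 in OS-LM1 (7626 genes in all). At this size 3 were higher between the hairpins in 786-M1A (4335 genes in all) and 0 higher and 1 lower in OS-LM1 (1978 genes). Likewise 5 were lower in OS-LM1 than 786-M1A with sgNTC18 (7252 genes) and 8 with shPAX8 (10114 genes). In the difference between lines in response 5 were higher (7461 genes). Leaving out 786-M1A shPAX8-1 libraries 1 and 2 gave 6817 genes for the difference between lines between hairpins, and leaving out 3 and 4 gave 2579, and 3869 between the hairpins in 786-M1A. Leaving out 1 library gave 2 to 5 members higher between the hairpins in OS-LM1 (3558 to 4885 genes in all), 2 without replicate 1 of either construct and 5 without shPAX8-2 replicate 2. The cause was not tested. At depths of 11634419 to 52059375 counts, PDK4 and FBP1 had few reads.

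Replicate numbers were not taken to pair the libraries, since not every same-numbered pair correlated at over 0.1. Over 24 pairs of same-numbered libraries the correlation of deviations had a mean of 0.003 (-0.319 to 0.271), and -0.001 for other pairs. Between shPAX8-1 and shPAX8-2 of 786-M1A it was higher, 0.037 to 0.271 with a mean of 0.17, and -0.057 for other numbers there. Deviations were taken from each group's own mean. The means for other numbers therefore largely follow from those for the same number and are no separate reference. Not every library correlated best with its own number, since sgNTC18 replicate 1 of 786-M1A was at -0.319 with shPAX8-1 replicate 1 and at 0.28 with replicate 3. With the replicate number as a block, 6 members were higher and 16 lower with shPAX8 in 786-M1A (10298 genes in all), and 4 and 18 in OS-LM1 (10718 genes). Between the hairpins the block gave 8 and 11, in place of 7 and 10, in 786-M1A (6998 genes) and 3 and 2 in OS-LM1 (3642 genes). Of the 240 member values, 235 kept their side of the threshold under the block.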

Other observations

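CA9 and NDUFA4L2, which are induced by hypoxia-inducible factors, were measured among the renal markers. CA9, a carbonic anhydrase used as a marker of ccRCC, ranged from 5.94 to 6.96 CPM with sgNTC18 and from 25.2 to 45.3 CPM with shPAX8 in OS-LM1. NDUFA4L2, a mitochondrial protein, ranged from 0.381 to 0.779 CPM and from 17.9 to 31.4 CPM. In both genes the groups did not overlap, both were at or near 0 in 786-M1A, and the differences were not tested. CA12, a carbonic anhydrase on the same list that hypoxia also induces, ranged in OS-LM1 from 669.8 to 777 CPM with sgNTC18, 516 to 587 CPM with shPAX8-1 and 827 to 917 CPM with shPAX8-2, and in 786-M1A from 978 to 1005 CPM, 346 to 412 CPM and 579 to 647 CPM. In the same OS-LM1 libraries LDHA and PGK1 were lower with shPAX8, and ALDOC and PDK1 were higher.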
